A study of Drosophila melanogaster with 12 samples.

Results

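The 10 genes described here, sina, phyl, ttk, lz, svp, ro, salm, salr, pros and boss, act in the choice of R7 and other photoreceptor fates in the fly eye. Their rows were found by name, as any row whose gene names include one of them. The set of names was drawn up with earlier results of these data known. Each of the 10 was found in 1 row of the deposited gene tables, out of 15904 gene rows in all. Every member was tested in all 6 comparisons, so none was lost to a filter on low values.

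RNA came from whole eye discs of Drosophila melanogaster larvae at the wandering stage of the third instar. There were 4 groups of 3 samples, and a sample pooled 30 disc pairs. All groups were in a w1118 background and carried UAS-GFP and sev-GAL4, whose enhancer works in the cells that express sevenless. The control group had dco2 over a wild-type chromosome and no activated Ras. The Ras group carried UAS-RasV12, a constitutively active Ras, together with dco2. The RNAi group carried UAS-RasV12 and UAS-hsrωRNAi, which targets the noncoding transcript hsrω, and the EP3037 group carried UAS-RasV12 and the insertion EP3037, whose label states raised hsrω. Neither of these last groups has dco2 in its label. Against the control or the Ras group, an effect of that allele and an effect of the hsrω construct therefore cannot be told apart. Against the control, RasV12 differs too. The RNAi and EP3037 groups, set against each other, have dco2 in neither label. Since sev-GAL4 acts in part of the disc and whole discs were taken, a level here averages over driven and undriven cells, and fewer cells of a type and less RNA per cell cannot be told apart.

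In the eye disc, photoreceptors are recruited one after another around R8, the founder cell of each facet. R8 displays Boss, which binds the receptor Sevenless on the R7 precursor and activates Ras. Ras signalling turns on phyl. The Phyl protein brings the transcriptional repressor Tramtrack to the ubiquitin ligase Sina, and the loss of Tramtrack protein permits neuronal fate. Lz, Svp, Ro, Salm, Salr and Pros are transcription factors that divide the later cells into R1 and R6, R3 and R4, R2 and R5, and R7. Expression of RasV12 under a sevenless driver is a classical way to give extra R7 cells. Tramtrack is regulated as a protein, which these RNA measurements do not show.

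Levels are the authors' FPKM, fragments scaled by transcript length and by all mapped fragments, with a single value that pools the samples of a group. No value per sample, SD or count of samples in one direction can therefore be given. A gene is said to have risen or fallen when the authors' Cuffdiff test gave it a q-value at or under 0.05. The smallest deposited q is 0.00789. The labels do not say that samples came from separate crosses, so p-values measure the spread between these samples only. Intervals of a log2 change are approximate 95% intervals derived from the authors' deposited statistics and p-values. Read depth per sample is unknown from FPKM values.

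Checks of the samples came first. The 8 eye disc markers ey, toy, so, eya, dac, gl, elav and chp were measured in every group, the lowest value being 11.00 FPKM for chp with EP3037, and their summed level was between 550 and 602 FPKM. That sum held opposite moves, none of them called. From control to the RNAi group toy went from 209.5 to 160.7 FPKM, and ey was lower too. Eya went from 111.3 to 155.8 FPKM, gl from 48.1 to 63.9 and elav from 41.8 to 60.8. So, dac and chp were higher by less. Ras85D, the Ras gene, was at 74.4 FPKM for control and between 121 and 151 FPKM in the groups with RasV12, and its reads can come from the transgene. Hsromega was at 543, 389, 398 and 606 FPKM across control, Ras, RNAi and EP3037, so its pooled level in the RNAi group was not below that of the Ras group (p = 0.966 in the authors' deposited table). The higher level with EP3037 was not called against control, Ras or RNAi (p = 0.840, 0.486 and 0.385 in the authors' deposited tables). The groups are named by their labels.

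The labels state that the study set discs with activated Ras against a control, and then with hsrω RNA lowered or raised. Svp, salm and salr rose from the control to the RNAi group, and salm fell from the RNAi to the EP3037 group. These were the only member calls in the 6 comparisons as deposited. Of these 4 calls only that of svp held once a trend of the changes with transcript length was subtracted. The svp row also names CG44037 and overlaps other rows. With rows that overlap another row left out, svp was dropped and 2 calls remained from control to the RNAi group, salm and salr. No member call from control to the RNAi group was kept under both settings. Each call involves the RNAi group, which Cuffdiff read as 4 inputs from 3 samples, so the p, q and interval of each rest on an input count above the number of samples. How far this moves them was not tested. Svp, an orphan nuclear receptor of the COUP family that keeps R1, R6, R3 and R4 from R7 fate, was 2.27-fold higher in the RNAi group than in the control. The spalt zinc finger genes salm and salr, which act in R3 and R4 and later in R7 and R8, were 1.77-fold and 1.66-fold higher. No member was called between the control and the Ras group. The levels of all members by group are plotted next.

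**Figure D1:**
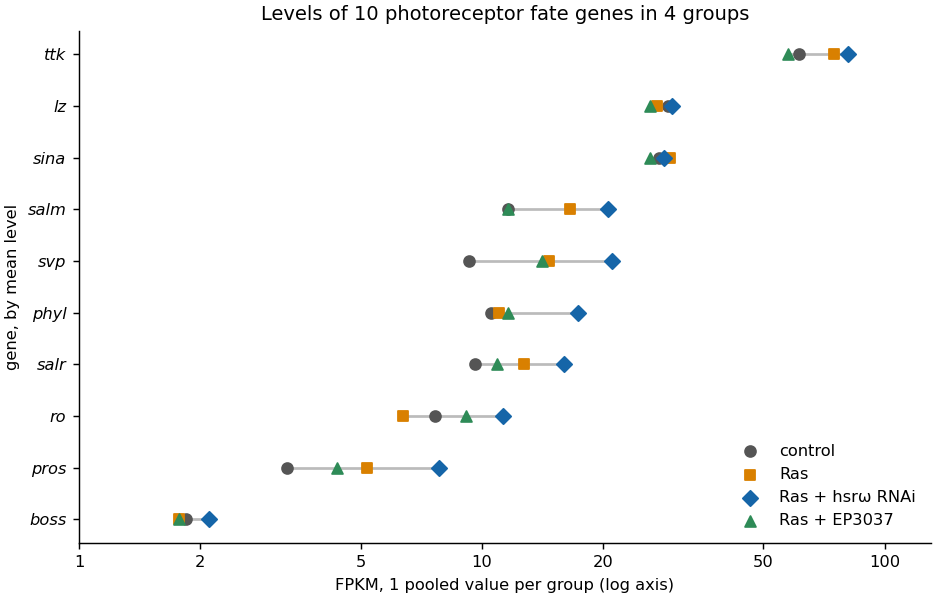
Level of each of the 10 genes (rows, ordered by mean level) in FPKM on a log axis, with 1 pooled value per group and no error. The RNAi group (diamonds) holds the highest level for 9 genes; ttk is the most abundant and boss the least.

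By level, ttk stood first with a mean of 68.7 FPKM over the groups and boss last with 1.87 FPKM. Lz and sina followed ttk at 27.95 and 27.84 FPKM. Salm at 15.1, svp at 14.8, phyl at 12.6 and salr at 12.3 FPKM formed a middle set, with ro at 8.60 and pros at 5.16 FPKM below them. Among all rows, ttk lay between percentile 92.09 and 94.59 of level and boss between 46.32 and 48.11, depending on the group. The difference between neighbours in this order was not tested, since the tables hold no test between genes.

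Boss, the seven-pass membrane ligand of Sevenless on R8 (chromosome 3R, 25961994 to 25966948, plus strand, 1 annotated transcript), was measured at 1.84 FPKM for control, 1.76 for Ras, 2.101 for RNAi and 1.77 for EP3037. These values lay within 1.19-fold of each other. The log2 change from control to Ras was -0.06, with an approximate interval from -0.70 to 0.58 and p = 0.859 in the authors' deposited table. That interval spans changes in either direction, so a moderate difference in boss was not detectable here.

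Phyl, the adaptor that joins Tramtrack to Sina and a transcriptional target of Ras signalling (chromosome 2R, 14427336 to 14432337, minus strand, 1 annotated transcript), was measured at 10.55 FPKM for control, 11.00 for Ras, 17.3 for RNAi and 11.6 for EP3037. The RNAi group stood apart and the other 3 groups lay close together. From the control to the RNAi group the difference was 1.64-fold, with an approximate log2 interval from 0.27 to 1.16, and was not called (p = 0.00185, q = 0.119 in the authors' deposited table). From Ras to the RNAi group the log2 difference was 0.65 (p = 0.0046, q = 0.220 in the authors' deposited table). From control to Ras it was 0.06, with an approximate interval from -0.40 to 0.53. Phyl is of middle length, 1839 nt, and its log2 difference of 0.71 from control to RNAi compares with a median of -0.04 over the 1073 tested rows in the same decile of transcript length.

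Sina, the RING finger ubiquitin ligase named for the absence of R7 in its mutants, was the steadiest member. It was measured at 27.6 FPKM for control, 29.2 for Ras, 28.4 for RNAi and 26.2 for EP3037, a spread of 1.12-fold. It was also the single member whose highest level was not in the RNAi group. Its log2 changes lay between -0.16 and 0.09 over the 6 comparisons, and the approximate interval from control to the RNAi group ran from -0.36 to 0.44. The annotated gene lies on chromosome 3L, 16853751 to 16858712, plus strand, inside a locus that also holds the rows sinah, CG13029 and Rh4. Those rows were at 0.350 to 5.26 FPKM, and reads of the overlapping rows cannot be assigned with certainty.

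Ttk, the BTB zinc finger repressor of neuronal fate (chromosome 3R, 31713867 to 31735392, plus strand, 8 annotated transcripts), was measured at 61.3 FPKM for control, 74.9 for Ras, 81.1 for RNAi and 57.5 for EP3037. The Ras and RNAi groups were the higher pair. From the RNAi to the EP3037 group the log2 difference was -0.50 and was not called (p = 0.0167, q = 0.474 in the authors' deposited table). The row sums all ttk transcripts, so the isoforms Ttk88 and Ttk69 were not separated. The level of phyl relative to ttk, both per length, was 0.172 for control, 0.147 for Ras, 0.213 for RNAi and 0.202 for EP3037.

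Lz, the Runx factor of the R1, R6, R7 and cone cell precursors (chromosome X, 9284649 to 9303636, plus strand, 2 annotated transcripts), was nearly level. It was measured at 28.9 FPKM for control, 27.1 for Ras, 29.6 for RNAi and 26.2 for EP3037. From control to the RNAi group its log2 change was 0.03, with an approximate interval from -0.35 to 0.41. Lz and boss were each other's nearest member in pattern, at a Euclidean distance of 0.12 between log2 levels centred over the 4 groups.

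Svp was measured in a row that names CG44037 as well (chromosome 3R, 12258737 to 12302785, plus strand, 5 annotated transcripts of svp). The row was measured at 9.26 FPKM for control, 14.7 for Ras, 21.1 for RNAi and 14.1 for EP3037. The control was lowest, the Ras and EP3037 groups lay together, and the RNAi group was highest. The rise from control to the RNAi group was 1.18 on the log2 scale, with an approximate interval from 0.77 to 1.60 (q = 0.00789 in the authors' deposited table). From control to Ras the log2 difference was 0.67 with an approximate interval from 0.24 to 1.10, and from control to EP3037 it was 0.60 with one from 0.18 to 1.03. Neither was called (q = 0.196 and 0.302 in the authors' deposited tables). All comparisons with the control share its samples. From Ras to the RNAi group the log2 difference was 0.52 and was not called either (p = 0.0118, q = 0.385 in the authors' deposited table). The locus of this row overlaps 4 other rows, CG44038, CR44039, CG17738 and Sfp87B, the highest of them at 3.58 FPKM. Svp relative to lz, both per length, was 0.320 for control, 0.541 for Ras, 0.712 for RNAi and 0.538 for EP3037.

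Ro, the homeodomain factor of R2 and R5 (chromosome 3R, 26876771 to 26881171, minus strand, 2 annotated transcripts), had another order. It was measured at 7.63 FPKM for control, 6.37 for Ras, 11.3 for RNAi and 9.10 for EP3037. The Ras group was the lowest and the RNAi group the highest. From Ras to the RNAi group the log2 difference was 0.82, with an approximate interval from 0.14 to 1.51, and was not called (p = 0.018, q = 0.490 in the authors' deposited table). Ro has the shortest annotated transcript of the members, 1241 nt, and its row overlaps CG5500, which was at 7.11 to 9.74 FPKM.

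Salm (chromosome 2L, 11434311 to 11445614, minus strand, 2 annotated transcripts) was measured at 11.6 FPKM for control, 16.6 for Ras, 20.6 for RNAi and 11.6 for EP3037. The control and the EP3037 group held nearly the same level and the RNAi group the highest. The rise from control to the RNAi group was 0.82 on the log2 scale, with an approximate interval from 0.41 to 1.24 (q = 0.00789 in the authors' deposited table). From the RNAi to the EP3037 group salm fell by 0.82 on the log2 scale, with an approximate interval from -1.24 to -0.41 (q = 0.00789 in the authors' deposited table). With the length trend subtracted neither call held (q = 0.269 and 0.370). From control to EP3037 the log2 change was -0.00, with an approximate interval from -0.40 to 0.40. The Ras group lay between, with a log2 difference of 0.51 from the control (q = 0.428 in the authors' deposited table) and -0.51 on to EP3037 (q = 0.423 in the authors' deposited table), neither called.

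Salr (chromosome 2L, 11358873 to 11373636, plus strand, 3 annotated transcripts) is the neighbour and close relative of salm, with 60674 nt and no annotated protein-coding gene between them. It was measured at 9.59 FPKM for control, 12.7 for Ras, 16.0 for RNAi and 10.9 for EP3037. As in salm, the RNAi group was highest and the Ras group second. The rise from control to the RNAi group was 0.73 on the log2 scale, with an approximate interval from 0.33 to 1.14 (q = 0.0192 in the authors' deposited table), and was not called with the length trend subtracted (q = 0.287). From the RNAi to the EP3037 group the log2 difference was -0.55 and was not called (p = 0.006, q = 0.261 in the authors' deposited table). Salm and salr were nearest to each other in pattern, at a distance of 0.23, and salm relative to salr was 1.21, 1.30, 1.29 and 1.07 across control, Ras, RNAi and EP3037. As they are paralogs, reads that match both genes may have been split between them.

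Pros, the homeodomain factor expressed in R7 and cone cells (chromosome 3R, 11328480 to 11407627, plus strand, 6 annotated transcripts), had the widest range of the members. It was measured at 3.28 FPKM for control, 5.20 for Ras, 7.81 for RNAi and 4.37 for EP3037. The order of the groups was that of svp and salr. From control to the RNAi group the difference was 2.38-fold, yet its approximate log2 interval ran from 0.14 to 2.37 and it was not called (p = 0.0296, q = 0.630 in the authors' deposited table). Its approximate standard error, 0.57 on the log2 scale, compares with 0.21 for svp in the same comparison. Its longest annotated transcript, 23486 nt, is the longest of the members, and the overlapping row KP78a,KP78b was at 19.2 to 30.2 FPKM. In pattern it was nearest to svp among the members, at a distance of 0.19. Among 6315 single-gene rows at 5 FPKM or more in every group, cpo, X11Lbeta and CG5010 were nearest to it, at 0.08, 0.15 and 0.18 over the 4 groups. Cpo, for one, was at 20.7, 31.9, 45.8 and 26.3 FPKM across control, Ras, RNAi and EP3037.

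The comparisons were then read over the 10 members together, as counts beside those of all tested rows. From control to the RNAi group 3 of 10 members rose and 0 fell, while 1.11% of the 10952 tested rows rose. All 10 members had a log2 change above 0 in that comparison, against 49.3% of all rows, and the median was 0.64 against -0.00 for all. At a raw p of 0.05 or less, 5 of 10 were higher (svp, salm, salr, phyl and pros), against 5.72% of rows. From the RNAi to the EP3037 group 1 of 10 fell and 0 rose, while 1.52% of 10981 rows fell. All 10 members were below 0 there, while 52.3% of all rows were above 0. The median log2 change was -0.52 against 0.02 for all rows. Of the members 5 of 10 (salm, salr, phyl, svp and ttk) were lower at a raw p of 0.05 or less, against 6.37%. These comparisons share the samples of the RNAi group, so the second count does not stand apart from the first.

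**Figure D2:**
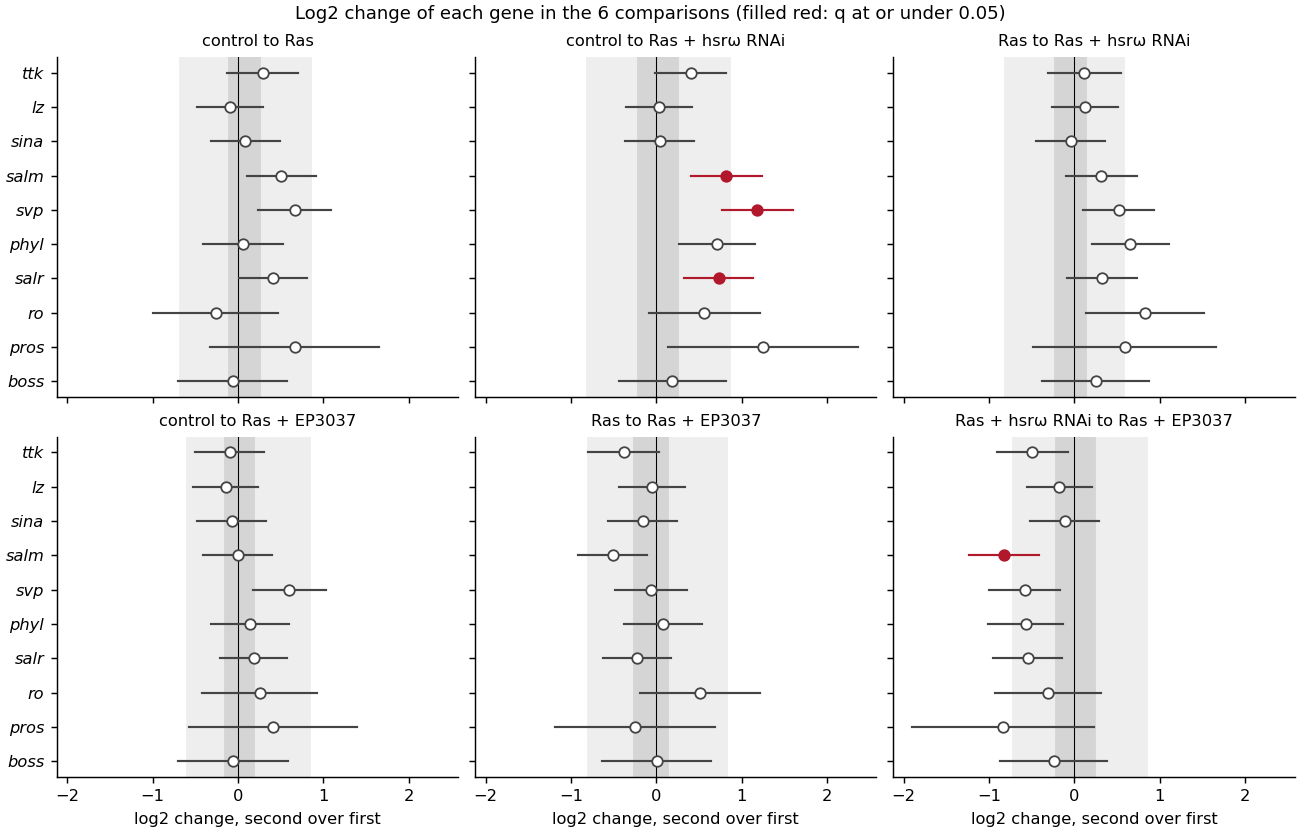
Log2 change of each gene in the 6 comparisons (panels, second group over first), with horizontal lines for approximate 95% intervals, the dark band for percentiles 25 to 75 and the pale band for percentiles 5 to 95 of all tested rows. Filled red points passed q at or under 0.05: svp, salm and salr from control to the RNAi group, and salm from the RNAi to the EP3037 group.

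From control to Ras, Cuffdiff called 0 of 10 members, against 0.773% of 10996 rows called in either direction. Svp and salm, both higher, had a raw p of 0.05 or less, against 3.37% of rows higher at that level. The members' median log2 change was 0.19 and that of all rows 0.05, with 7 of 10 members above 0, against 58.0% of all rows. From Ras to the RNAi group Cuffdiff called 0 of 10, against 0.743% of 10897 rows. Phyl, svp and ro were higher at a raw p of 0.05 or less, a level that 1.35% of rows reached in that direction. Here 9 members were above 0, against 46.6% of all rows, and the median was 0.32 against -0.02 for all rows.

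No member was called between the EP3037 group and either the control or the Ras group. From control to EP3037, 0 of 10 members were called by Cuffdiff, against 0.643% of 11039 rows, and 1, svp, was higher at a raw p of 0.05 or less, against 1.82% of rows. The median was 0.07 against -0.01 for all rows. Of the members 5 were above 0 and 5 below, while 48.9% of all rows were above 0. From Ras to EP3037, 0 of 10 were called by Cuffdiff, against 0.786% of 11062 rows, and 1, salm, was lower at a raw p of 0.05 or less, against 4.16% of rows. The median was -0.11 against -0.05 for all rows, with 3 members above 0, against 43.1% of all rows.

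Over the 4 groups, 9 of 10 members had their highest level in the RNAi group. Of the 10439 rows tested in all comparisons, 28.3% were highest there and 31.9% were lowest there. No member was lowest in the RNAi group. The order control, then Ras, then RNAi was rising in 6 members (phyl, ttk, svp, salm, salr and pros), against 24.0% of those rows.

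Transcript length moved with the same comparisons. From control to the RNAi group the median log2 change of all rows went from -0.12 in the shortest decile of transcripts to 0.27 in the longest decile, and from the RNAi to the EP3037 group it went from 0.23 to -0.31. Salm (6118 nt), salr (5189 nt) and pros lie in the longest decile, of which 5.59% rose from control to the RNAi group and 8.62% fell from the RNAi to the EP3037 group. Once the trend with length was subtracted, svp alone of the members was still called from control to the RNAi group (log2 change 1.09, q = 0.0343), while salm (0.59) and salr (0.56) were not, and 0.466% of all rows rose. The fall of salm from the RNAi to the EP3037 group was likewise not called (-0.56), where 0.437% of all rows fell. The deposited p goes no lower than 5e-05, and how far that limit moved these calls and shares was not tested. The members' median kept its direction in both, at 0.58 and -0.34. Phyl and ro, shorter than the median tested transcript or near it, lay above the trend from control to the RNAi group and below it from the RNAi to the EP3037 group, with no call in either.

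**Figure D3:**
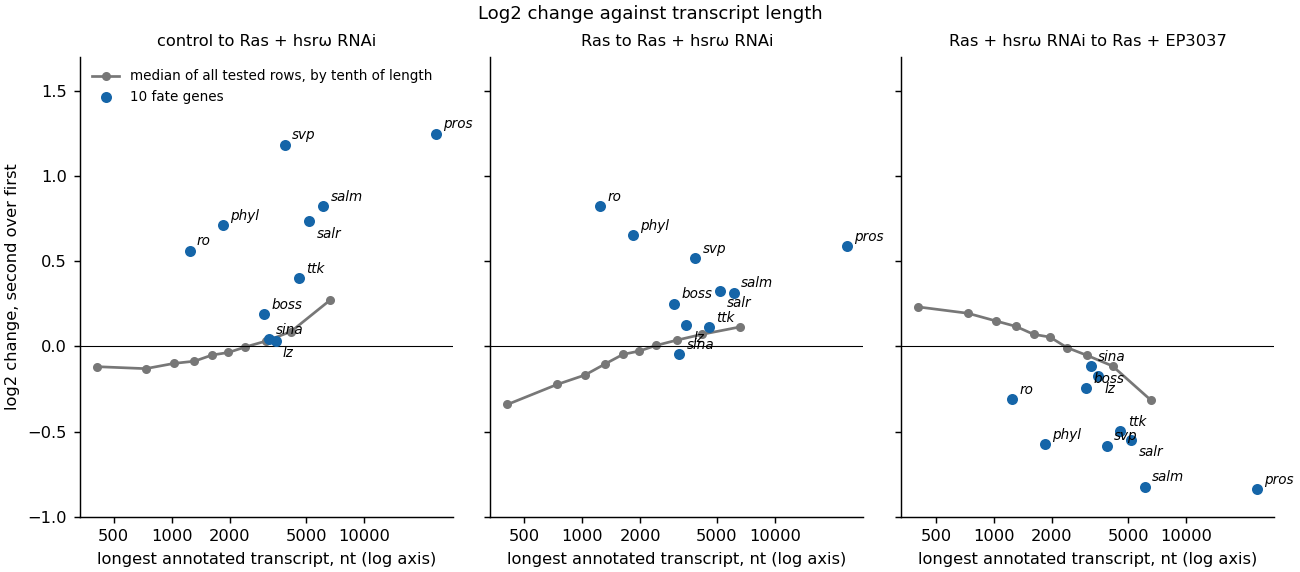
Log2 change (second group over first) against the longest annotated transcript of a gene in nt on a log axis, for 3 comparisons. Grey points are medians of all tested rows by decile of length, which go from -0.12 to 0.27 in the first panel; blue points are the 10 genes, of which svp, phyl and ro stand farthest above the grey line for their length there, apart from pros at 23486 nt.

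Markers of other tissues and cell types were also read, and some of them differed between the groups. The summed level of 6 haemocyte markers was 83.4 FPKM for control, 74.8 for Ras, 173 for RNAi and 107 for EP3037. From Ras to the RNAi group 5 of 6 rose, against 0.743% of all tested rows called in either direction. Most of each sum was PPO1 and PPO2, at 37.0 and 24.1 FPKM for control and 81.3 and 64.7 for RNAi. Among Hml, Pxn, eater and NimC1 the highest value was 12.82 FPKM, for Pxn in the RNAi group. From control to the RNAi group 2 of 6 rose, PPO1 and PPO2, against 1.11% of all rows, and 1 fell, NimC1. PPO1 and PPO2 fell from the RNAi to the EP3037 group, against 1.52% of all rows. The 5 fat body markers summed to 46.3, 15.9, 8.02 and 20.02 FPKM in the same order, with 5 of 5 lower from control to the RNAi group and 3 of 5 higher from the RNAi to the EP3037 group. The 3 ring gland markers summed to 77.3, 99.0, 35.9 and 37.2 FPKM, with 2 of 3 lower from control to the RNAi group and 0 called by Cuffdiff from the RNAi to the EP3037 group. For calls lower from control to the RNAi group, or higher from the RNAi to the EP3037 group, the share of all rows is not given here. Glial markers summed to between 100 and 125 FPKM and antennal disc and peripodial markers to between 42.5 and 53.4, with no call in any comparison. Most of the glial sum was nrv2, at 88.8 to 115.5 FPKM. Of the antennal disc and peripodial markers, Ubx was at 0.095 to 0.194 FPKM and was not tested in any comparison. The matched brain neuron markers, 3 of 4, summed to between 9.94 and 15.4 FPKM, of which VGlut was under 0.1 FPKM in every group. Among these brain neuron markers brp, a protein of presynaptic active zones, was at 5.67, 9.57, 10.3 and 6.10 FPKM across control, Ras, RNAi and EP3037. Brp rose from control to the RNAi group (q = 0.00789) and from control to Ras (q = 0.0284), and fell from the RNAi to the EP3037 group (q = 0.0284), all in the authors' deposited tables. The other tested brain neuron marker, Syt1, did not share that order. It was at 4.22, 4.70, 5.11 and 5.40 FPKM across the same groups, highest with EP3037 and with no call. No listed marker was at 0 in any group. The part of these tissues in the member values was not tested.

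Other genes of the pathway were read from a list of 43, all matched to a row. From control to the RNAi group 2 of 41 tested rose and 0 fell, against 1.11% of all tested rows that rose, namely Ras85D and the receptor gene sev. Sev was at 22.6, 28.4, 36.8 and 28.99 FPKM across control, Ras, RNAi and EP3037, and was 1.63-fold higher in the RNAi group than in the control (q = 0.0359 in the authors' deposited table). The sev call did not hold with the length trend subtracted or at a q of 0.01 or less. Its driver fragment is in all groups. Ras85D rose from control to EP3037 as well, the single list call of 41 tested in that comparison, where 0.254% of all rows rose. The control lacks UAS-RasV12, whose reads can fall in the Ras85D row, so its rises from the control can be given by the design alone. Without Ras85D, sev was the only list call from control to the RNAi group, and no list gene was called from control to EP3037. Ras85D is also in the raw p counts from the control. Cuffdiff called 0 of 41 from control to Ras, 0 of 41 from Ras to RNAi and 0 of 40 from Ras to EP3037, against 0.773%, 0.743% and 0.786% of all rows. At a raw p of 0.05 or less, 2 were higher from control to Ras, 1 was higher from Ras to RNAi and 6 were lower from Ras to EP3037, against 3.37%, 1.35% and 4.16% of all rows.

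From the RNAi to the EP3037 group 1 of 41 fell and 0 rose, while 1.52% of all rows fell. This was Usp47, listed under its older name Ubp64E, a deubiquitinase that stabilises Tramtrack. It was at 33.8, 37.1, 43.0 and 26.4 FPKM across control, Ras, RNAi and EP3037, and fell by 0.70 on the log2 scale from RNAi to EP3037 (q = 0.0240 in the authors' deposited table). That call, too, was lost with the length trend subtracted and at a q of 0.01 or less. The other genes of Tramtrack degradation held no call. Ebi, an F-box-like protein that acts with Phyl and Sina, lay between 31.1 and 33.6 FPKM, and eff, a ubiquitin-conjugating enzyme, between 411 and 494. Sinah, the sina relative in the sina locus, lay under 1 FPKM in every group.

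Of 19 other transcription factors, 0 were called by Cuffdiff from control to the RNAi group and 6 had a raw p of 0.05 or less, all higher, against 1.11% of all rows called higher and 5.72% higher at that p. Nej, the CBP co-activator, was at 19.8, 28.9, 32.9 and 18.8 FPKM across control, Ras, RNAi and EP3037. It was not called from control to RNAi (q = 0.0809 in the authors' deposited table) or from RNAi to EP3037 (q = 0.0509 in the authors' deposited table). Run, a Runx factor of R7 and R8, was at 1.86, 2.51, 3.62 and 1.89 FPKM, with the RNAi group highest. Aop, the Ets repressor Yan that Ras signalling inactivates, was at 68.1, 88.0, 106 and 67.6 FPKM, again with the RNAi group highest and with no call. Gl, a zinc finger factor of all photoreceptors, was at 48.1, 47.0, 63.9 and 44.1 FPKM and was the single list gene with a raw p of 0.05 or less from Ras to RNAi (p = 0.0254 in the authors' deposited table).

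Ato, the proneural factor of R8, had a different order, at 47.8, 47.0, 45.6 and 33.6 FPKM, lowest in the EP3037 group and with no call. Its unadjusted p from control to EP3037 was 0.0191 in the authors' deposited table. The exchange factor gene Sos was at 12.9, 14.1, 15.6 and 9.91 FPKM, not called from RNAi to EP3037 (q = 0.0664 in the authors' deposited table). The photoreceptor surface protein gene chp was at 13.4, 16.4, 14.3 and 11.00 FPKM (q = 0.247 from Ras to EP3037 in the authors' deposited table). The rhodopsin genes, which are turned on later in development, were under 1 FPKM in every group. Among them Rh6 was measured at 0.719 FPKM for control and 0.169 for EP3037, with no call.

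**Figure D4:**
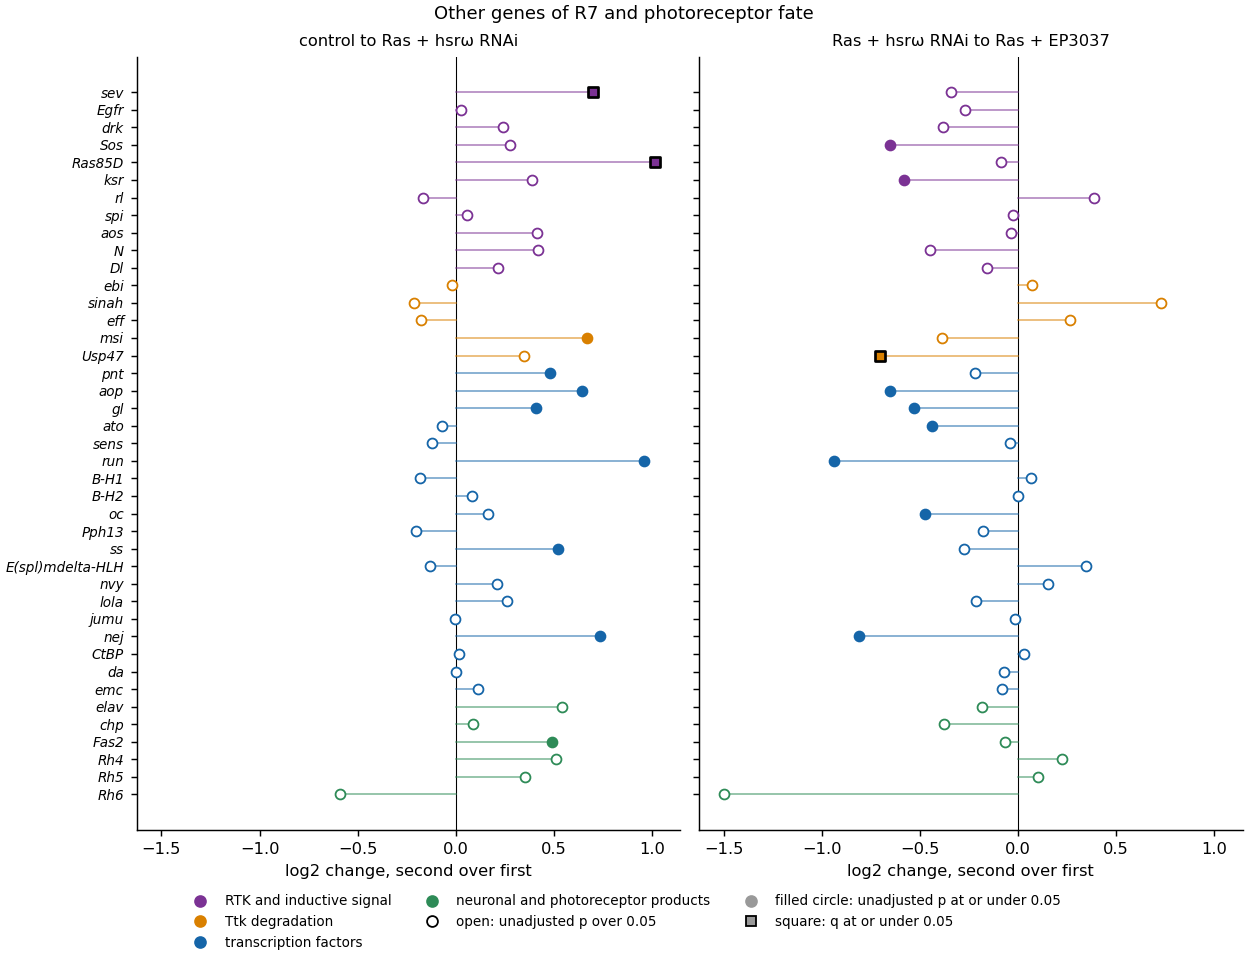
Log2 change of 41 other genes of R7 and photoreceptor fate from control to the RNAi group (left) and from the RNAi to the EP3037 group (right), coloured by list. Squares passed q at or under 0.05 (sev and Ras85D on the left, Usp47 on the right), filled circles had a raw p of 0.05 or less, and open circles did not.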

How the data were processed

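Stranded, ribosome-depleted total RNA of 12 eye disc samples, 3 in each of 4 groups, was sequenced as 50 bp read pairs, 12 samples per lane over 2 lanes, per the labels' protocols. Reads were handled with Bowtie, TopHat and Cufflinks, then Cuffdiff 2.1.1, on dm6, per the submitters' processing notes. The authors deposited 6 pairwise Cuffdiff tables, with 1 pooled FPKM per gene and group. Cuffdiff's test statistic, a score, was deposited by the authors for each row, with a p-value and a q-value. The deposited q equals a Benjamini-Hochberg adjustment over all 65927 tests of the 6 tables to within 1.56e-05. The sample names in the deposited tables list 4 inputs for the RNAi group, 1 of its 3 samples appearing as a pair, which bears on every p, q and interval of that group.

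Log2 changes were computed from the FPKM with no pseudocount. A normal p from the statistic did not give the deposited p (at a statistic of 2 the median deposited p was 0.0005, against 0.0455). Standard errors were therefore taken from the statistic rescaled gene by gene to the deposited p, a choice made after seeing the data, as were the scaling and length alternatives built on it. Transcript lengths and gene spans came from Ensembl release 115 (BDGP6), which matched 15682 of 15904 rows by name. The length trend was a lowess curve (fraction 0.3) on log10 length, tried on simulated data first. The simulation had a linear trend and normal p-values, unlike the deposited ones, so it does not check the q-values after subtraction. The q-values after subtraction or scaling came from rescaling the deposited p. That p stops at 5e-05, the value of svp and salm from control to RNAi. Scaling took the q of svp there from 0.00789 to 0.0111, though its log2 change went from 1.1846 to 1.1889. Python 3.11.15, pandas 2.3.3, numpy 2.4.6, scipy 1.17.1 and statsmodels 0.14.6 were used.

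All members were named. Of the other listed genes, those called and up to 4 with the smallest p at or under 0.05 per comparison were named; ebi, eff and sinah were added to describe Tramtrack degradation. Likeness was the Euclidean distance of centred log2 FPKM. The members and lists were chosen with earlier results of these data known.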

Additional observations from a re-analysis of the deposited data

Results flagged for a closer look

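Salm moved differently from the control in the groups with opposite hsrω labels, and the difference between those groups was itself tested. From the RNAi to the EP3037 group its log2 difference was -0.82 (q = 0.00789 in the authors' deposited table), with levels of 20.6 and 11.6 FPKM. With the trend on transcript length subtracted the value was -0.56, with q = 0.370. The part of transcript length in this result was not tested beyond that subtraction.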

How the results depend on the processing

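At a raw p of 0.05 or less, the members called were 2 from control to Ras, 5 from control to RNAi, 3 from Ras to RNAi, 1 from control to EP3037, 1 from Ras to EP3037 and 5 from RNAi to EP3037, and the listed other genes 2, 10, 1, 3, 6 and 9 in that order. The shares of all tested rows in that order were 3.37%, 5.72%, 1.35% and 1.82% higher, then 4.16% and 6.37% lower. These are the directions of the counts, except that the 3 listed genes from control to EP3037 were 1 higher and 2 lower. With the length trend subtracted, 1 member (svp) and 1 listed gene (Ras85D) were called from control to RNAi, and 0 members and 0 listed genes from RNAi to EP3037, so salm, salr, sev and Usp47 lost their calls. That subtraction also reversed small uncalled log2 changes: sina to -0.0092 and lz to -0.0355 from control to RNAi, salm to 0.0404 from control to EP3037, and svp to 0.0017 and pros to 0.1047 from Ras to EP3037. Scaling to the median change turned salm from control to EP3037 to 0.005 and called 2 listed genes from RNAi to EP3037. At q at or under 0.01 the listed genes called were 1 from control to RNAi and 0 from RNAi to EP3037, so sev and Usp47 lost their calls, as did salr. With rows at 1 FPKM or more, 1 listed gene (Ras85D) was called from control to Ras and 2 from RNAi to EP3037. Adjustment within a comparison called 3 there. With rows that overlap another row left out, which drops svp, 2 members (salm and salr) were called from control to RNAi. No paired analysis was possible because the tables hold 1 pooled value per group, which also kept samples from being left out in turn. The cause of these moves was not tested, beyond what each setting changes by construction.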

Other observations

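Among listed genes outside the 10 members, msi, the Musashi RNA-binding protein that represses ttk translation, was at 57.3, 70.4, 91.2 and 69.5 FPKM across control, Ras, RNAi and EP3037, with no call. Fas2, a neuronal adhesion protein, was at 139.5, 156.7, 196 and 187 FPKM, and elav, a marker of neurons, at 41.8, 48.0, 60.8 and 53.4 FPKM, both highest in the RNAi group and with no call. The Bar genes B-H1 and B-H2, which mark R1 and R6, lay between 19.2 and 24.0 FPKM and between 34.4 and 39.2 FPKM. Msi, Fas2 and the Bar genes were chosen for mention after their values were seen.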
